A study of Mus musculus with 45 samples.

Results

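The comparison of 0.3 µg/kg TCDD with vehicle took in 10 of the 45 livers of the series, the 5 from mice labelled 0.3 µg/kg and the 5 from mice labelled vehicle, and covered all 17464 genes that were detected. Female C57BL/6 mice received sesame oil, alone or carrying TCDD, by gavage every 4 days over 28 days, and liver RNA was sequenced. The labels also describe all groups as ovariectomized and carry the word daily, neither of which appears in the study's methods. The mice at the next lower dose, 0.1 µg/kg, were used to ask which genes were added between those doses. Each mouse gave 1 library, and the labels give no pairing or batch between the groups.

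TCDD, a dioxin, acts through the aryl hydrocarbon receptor (AhR), a ligand-activated transcription factor of the basic helix-loop-helix PAS family. Bound AhR leaves its chaperone complex, enters the nucleus, pairs with ARNT and binds dioxin response elements, whose core is GCGTG. In the liver the best known targets are the cytochrome P450s *Cyp1a1* and *Cyp1a2*, conjugating enzymes that handle the oxidized products, and *Ahrr* and *Tiparp*, both of which repress the receptor.

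Dioxin response element cores in the promoters of responding genes are shown first, with the core in capitals on either strand (GCGTG, or CACGC as its complement). The windows run from 250 bases before to 50 bases after a RefSeq transcription start in GRCm38.p6, and are written in the gene's own 5′ to 3′ direction. *Cyp1a1* (chr9:57697363-57697662, plus strand) and *Cyp1a2* (chr9:57683606-57683905, minus strand) are the divergent P450 pair, *Ahrr* (chr13:74292282-74292581, minus strand) is the receptor's repressor, and *Htatip2* (chr7:49758856-49759155, plus strand, the upstream of 2 windows) and *Tent5b* (chr4:133479883-133480182, plus strand) are genes whose level also differed between 0.3 and 0.1 µg/kg.
Cyp1a1: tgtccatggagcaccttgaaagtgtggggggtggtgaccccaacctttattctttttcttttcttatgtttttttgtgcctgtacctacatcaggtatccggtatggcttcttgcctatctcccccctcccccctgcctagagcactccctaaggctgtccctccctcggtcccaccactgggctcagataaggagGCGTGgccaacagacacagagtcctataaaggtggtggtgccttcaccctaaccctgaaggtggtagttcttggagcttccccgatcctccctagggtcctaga
Cyp1a2: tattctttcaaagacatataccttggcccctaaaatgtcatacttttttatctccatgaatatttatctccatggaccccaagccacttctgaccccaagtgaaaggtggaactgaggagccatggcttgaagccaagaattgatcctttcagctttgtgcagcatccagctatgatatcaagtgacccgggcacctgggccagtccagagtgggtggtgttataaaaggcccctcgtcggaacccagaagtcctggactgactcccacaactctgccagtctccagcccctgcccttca
Ahrr: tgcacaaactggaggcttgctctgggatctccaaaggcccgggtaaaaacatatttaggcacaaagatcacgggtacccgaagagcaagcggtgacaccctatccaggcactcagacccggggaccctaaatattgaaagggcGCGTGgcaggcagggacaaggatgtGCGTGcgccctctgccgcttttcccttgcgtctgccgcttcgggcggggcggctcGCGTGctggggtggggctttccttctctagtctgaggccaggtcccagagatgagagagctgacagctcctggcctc
Htatip2: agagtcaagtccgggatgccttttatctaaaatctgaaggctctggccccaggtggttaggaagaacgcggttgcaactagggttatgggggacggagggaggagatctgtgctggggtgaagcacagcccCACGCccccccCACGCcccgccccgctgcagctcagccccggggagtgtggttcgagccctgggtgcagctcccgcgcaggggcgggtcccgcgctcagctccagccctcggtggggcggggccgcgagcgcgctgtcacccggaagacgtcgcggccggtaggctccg
Tent5b: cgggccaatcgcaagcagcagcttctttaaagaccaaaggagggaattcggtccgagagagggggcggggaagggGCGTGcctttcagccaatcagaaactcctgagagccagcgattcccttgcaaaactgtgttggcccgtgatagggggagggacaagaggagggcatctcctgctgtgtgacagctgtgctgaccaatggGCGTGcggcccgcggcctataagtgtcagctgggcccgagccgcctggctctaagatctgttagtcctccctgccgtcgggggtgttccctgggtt
The *Cyp1a1* window held 1 core, starting at position -54 from the transcription start, and *Ahrr* held 3, at -107, -82 and -27. *Htatip2* held 2 at -119 and -108, *Tent5b* held 2 at -175 and -46, and the *Cyp1a2* window held 0. The downstream *Htatip2* window held 0. So did those of *Cyfip2*, *Tuba8*, *Slc46a3*, *Sorcs3* and *Pkm*, which were also higher at 0.3 than at 0.1 µg/kg. Of the 32 genes that increased at least 2-fold, 27 had a RefSeq window and 12 of these (44.44%) held a core, against 52.22% of the 11932 tested genes with a window and 35.15% of all 27025 genes with one. The match describes these letters in these windows only.

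Reads on genes ranged from 14619385 to 20624724 in the vehicle mice and from 12997206 to 25816679 at 0.3 µg/kg, and genes with few reads are accordingly imprecise. The hepatocyte markers (7 of 7 tested, *Alb* and *Ttr* among them) summed to 112700 to 148600 CPM (reads of a gene scaled to a common library size) with vehicle and 115500 to 128700 CPM at 0.3 µg/kg, and none of them passed the test. Macrophage markers (7 tested) summed to 152.1 to 234.5 CPM with vehicle and 122.1 to 355.2 CPM at 0.3 µg/kg, and stellate cell markers (7 tested) to 126.1 to 177.7 CPM with vehicle and 138.8 to 207.2 CPM in the treated mice. Log2 fold changes were positive in 0 of 7 hepatocyte, 6 of 7 macrophage and 6 of 7 stellate cell markers, against 52.9% of all genes. Their medians were -0.178, 0.389 and 0.304, and no macrophage or stellate cell marker passed the test. Some libraries stood apart. Replicate 2 at 0.3 µg/kg held 12 *Prss2*, 6 *Cpa1*, 24 *Pnlip* and 15 *Cpb1* reads, which encode pancreatic enzymes, while the other 9 mice held 1 such read in all. The rest of the 6 pancreas markers did not share this pattern. *Cela2a* was at 0.777 CPM in that mouse and at 0.186 to 0.924 CPM with vehicle, and *Cela1* was lower at 0.3 µg/kg. Summed, the 6 markers were at 14.67 to 21.44 CPM with vehicle and at 8.392 to 12.22 CPM at 0.3 µg/kg. Replicates 1 and 2 at 0.3 µg/kg held 457 and 228 reads of the clock gene *Arntl*, against 7 to 22 in the vehicle mice and 11 to 32 in the other 3 treated mice. The clock output gene *Dbp* was at 3.29, 52.6, 193, 132.8 and 63.9 CPM in replicates 1 to 5 at 0.3 µg/kg, and at 145.4 to 183.6 CPM in the vehicle mice. Replicates 2, 4 and 5 were thus also below every control, and replicate 3 was above. Leaving out replicates 1 and 2 therefore does not level *Dbp* between the groups. In the 0.1 µg/kg group, reads on genes ranged from 12121564 to 56509899. Its replicate 2 held 175 *Arntl* reads, against 13 to 82 in the other mice of that group. Skeletal muscle markers (4 tested) summed to up to 11.39 CPM there, with a median of 0.01897. The part of these differences in the results below was not tested, and the counts against vehicle are given with and without replicates 1 and 2 at 0.3 µg/kg. In whole liver RNA, fewer cells of a type and less RNA per cell cannot be told apart.

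At 0.3 µg/kg, 83 genes differed from vehicle at an adjusted p under 0.05 (0.475% of the genes tested), and 42 of these (0.240%) changed at least 2-fold and were called differentially expressed (DEGs). Of the DEGs 32 increased (0.183%) and 10 decreased (0.0573%). The increased DEGs included *Cyp1a1*, the neuronal pentraxin gene *Nptx1*, *Cyfip2*, *Tuba8* and *Cyp1a2*, and the decreased ones included *Serpina7*, which encodes thyroxine-binding globulin, the leptin receptor *Lepr* and the liver pyruvate kinase *Pklr*. All 5 treated mice lay above all 5 vehicle mice in 27 DEGs and below them in 8, and the groups overlapped in the other 7. Among all genes tested, 0.933% lay above and 0.899% below in this way, 1.83% together. The median log2 fold change of all genes was 0.018.

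The number of DEGs rested partly on single mice. It fell to 27 without vehicle replicate 1 and to 23 without replicate 2 at 0.3 µg/kg, the library with pancreatic enzyme reads, of which 20 increased and 3 decreased. Of the 42 DEGs, 17 were lost without the first of these mice and 19 without the second, and 5 to 13 without any other single mouse. In all, 19 DEGs were called whichever mouse was left out. Leaving out both mice with high *Arntl* gave 29 DEGs, 25 of them among the 42. All 42 kept their direction, but the vehicle mice and the other treated mice are those that defined the 42. That alternative left 27 increased and 2 decreased genes. In it *Ahrr*, *Ugdh*, *Nfe2l2*, *Ugt1a1*, *Lad1* and *Siglecf*, described below, had adjusted p of 0.20, 0.16, 0.20, 0.29, 0.31 and 0.096. The 16 genes called in every alternative and with any mouse left out were *Cyp1a1*, *Nptx1*, *Scn8a*, *Igkv6-32*, *Tent5b*, *Cyfip2*, *Tuba8*, *Cyp1a2*, *Insl6*, *Gm15375*, *Slc46a3*, *Pcp4l1*, *Tnfaip8l3*, *Htatip2*, *Hectd2os* and *Serpina7*.

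**Figure D1:**
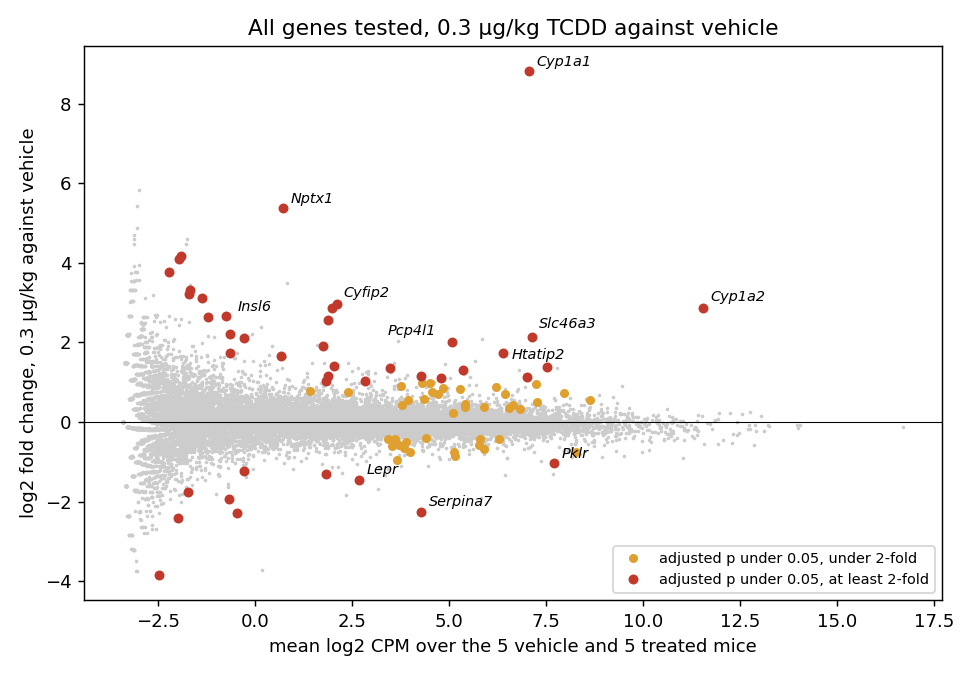
Each point is a gene, with its mean log2 CPM over the 10 mice on the x axis and its log2 fold change at 0.3 µg/kg against vehicle on the y axis. Red points are the 42 DEGs, orange points the other 41 genes with an adjusted p under 0.05, and *Cyp1a1* stands highest at 8.82.

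Of the AhR battery, a list of 12 receptor targets and regulators, 5 genes rose (*Cyp1a1*, *Cyp1a2*, *Ahrr*, *Ugdh* and *Nfe2l2*), none fell and 7 did not pass the test, where 0.326% of all genes rose and 0.149% fell. The median log2 fold change over the list was 0.68, against 0.018 over all genes. *Cyp1a1* (ENSMUSG00000032315, chr9:57687928-57703824) encodes the P450 that oxidizes dioxin-like and polycyclic aromatic compounds. It stood at 2.90, 1.335, 5.485, 16.65 and 11.1 CPM in the vehicle mice and at 4714, 2966, 2988, 2898 and 3511 CPM at 0.3 µg/kg. The groups were far apart, and vehicle replicates 4 and 5, with 269 and 220 reads, were the highest of the controls. By edgeR with Benjamini-Hochberg adjustment, the log2 fold change was 8.82 ± 0.78 (SE, n = 5 per group), with an adjusted p of 1.51e-10.

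*Cyp1a2* (ENSMUSG00000032310, chr9:57676937-57683703), the constitutive liver P450 beside *Cyp1a1*, stood at 942.1 to 1228 CPM in the vehicle mice, with a median of 1094, and at 8882, 7287, 6839, 7344 and 10000 CPM at 0.3 µg/kg. All treated mice lay above all controls. It rose 7.30-fold (2.87 ± 0.15 on the log2 scale), with an adjusted p of 2.35e-18, the lowest of any gene tested. *Ahrr* (ENSMUSG00000021575, chr13:74211118-74292331), the repressor that competes with AhR for ARNT, had 2, 2, 1, 1 and 6 reads with vehicle and 13, 21, 45, 6 and 6 at 0.3 µg/kg. In CPM the 5 treated mice were above the controls, by little in replicate 5 (0.325 against at most 0.303). Its log2 fold change was 2.64 ± 0.66 with an adjusted p of 0.046, and 7 of the 10 fits with a mouse left out lost the call, with adjusted p up to 0.22.

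*Ugdh* makes the UDP-glucuronic acid used by glucuronosyltransferases, and *Nfe2l2* encodes NRF2, the regulator of antioxidant genes. *Ugdh* rose from 194.9 ± 25.0 to 321.9 ± 43.4 CPM (mean ± SD, n = 5) and *Nfe2l2* from 86.4 ± 5.81 to 115.7 ± 6.18 CPM, log2 fold changes of 0.72 ± 0.15 and 0.42 ± 0.09 with adjusted p of 0.0081 and 0.015. The adjusted p of *Ugdh* was 0.054 without vehicle replicate 3, and that of *Nfe2l2* passed 0.05 in 3 of 10 fits with a mouse left out, reaching 0.059. Neither group overlapped its controls. *Nqo1*, an NAD(P)H quinone oxidoreductase, had a log2 fold change of 0.63 ± 0.18 (adjusted p = 0.12), *Cyp1b1* one of 0.83 ± 0.65 (adjusted p = 0.67) and *Tiparp* one of -0.11 ± 0.17 (adjusted p = 0.86).

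*Cyp1b1*, another P450 under AhR control, had 12, 10, 10, 40 and 49 reads in the vehicle mice and 36, 68, 62, 41 and 32 at 0.3 µg/kg, so that vehicle replicates 4 and 5 again stood highest among the controls. *Ugt1a6a* (0.12 ± 0.10), *Ugt1a6b* (-0.13 ± 0.17) and the glutathione transferase *Gsta1* (-0.35 ± 0.62) had adjusted p of 0.71, 0.82 and 0.88, and the aldehyde dehydrogenase *Aldh3a1* had 0 reads summed over the vehicle mice and 2 over those at 0.3 µg/kg, both under the floor of 3 reads. Of the exon bases of *Ugt1a6a* and *Ugt1a6b*, 50.3% and 60.6% overlap other genes, *Ugt1a* members among them. Reads there could not be assigned to 1 gene. The receptor gene *Ahr* itself had a log2 fold change of 0.022 ± 0.21 (adjusted p = 0.99).

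Which genes the step from 0.1 to 0.3 µg/kg added was tested directly between those 2 groups of 5. At 0.1 µg/kg 4 genes differed from vehicle (0.0229% of the genes tested), *Cyp1a1*, *Cyp1a2*, *Slc46a3* and *Htatip2*, and all 4 were among the 83 at 0.3 µg/kg, which were compared with the same vehicle mice. For the other 79, passing at only 1 of the doses is no test of a difference between them. Tested directly, 11 genes differed between 0.3 and 0.1 µg/kg (0.0630% of the genes tested), all higher at 0.3, and 7 of them by at least 2-fold (0.0401%). They were *Nptx1*, *Cyfip2*, *Tuba8*, *Tent5b*, *Insl6*, *Sorcs3* and *Pkm*, with *Cyp1a2*, *Slc46a3*, *Htatip2* and *Tcf4* under 2-fold. In *Sorcs3* and *Pkm* the mice at 0.1 µg/kg overlapped those at 0.3 µg/kg. All 11 were among the 83 genes that differed from vehicle, a comparison that used the same mice at 0.3 µg/kg. Without 0.1 µg/kg replicate 1 the count of 7 fell to 3, and without replicate 4 of that group to 4.

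**Figure D2:**
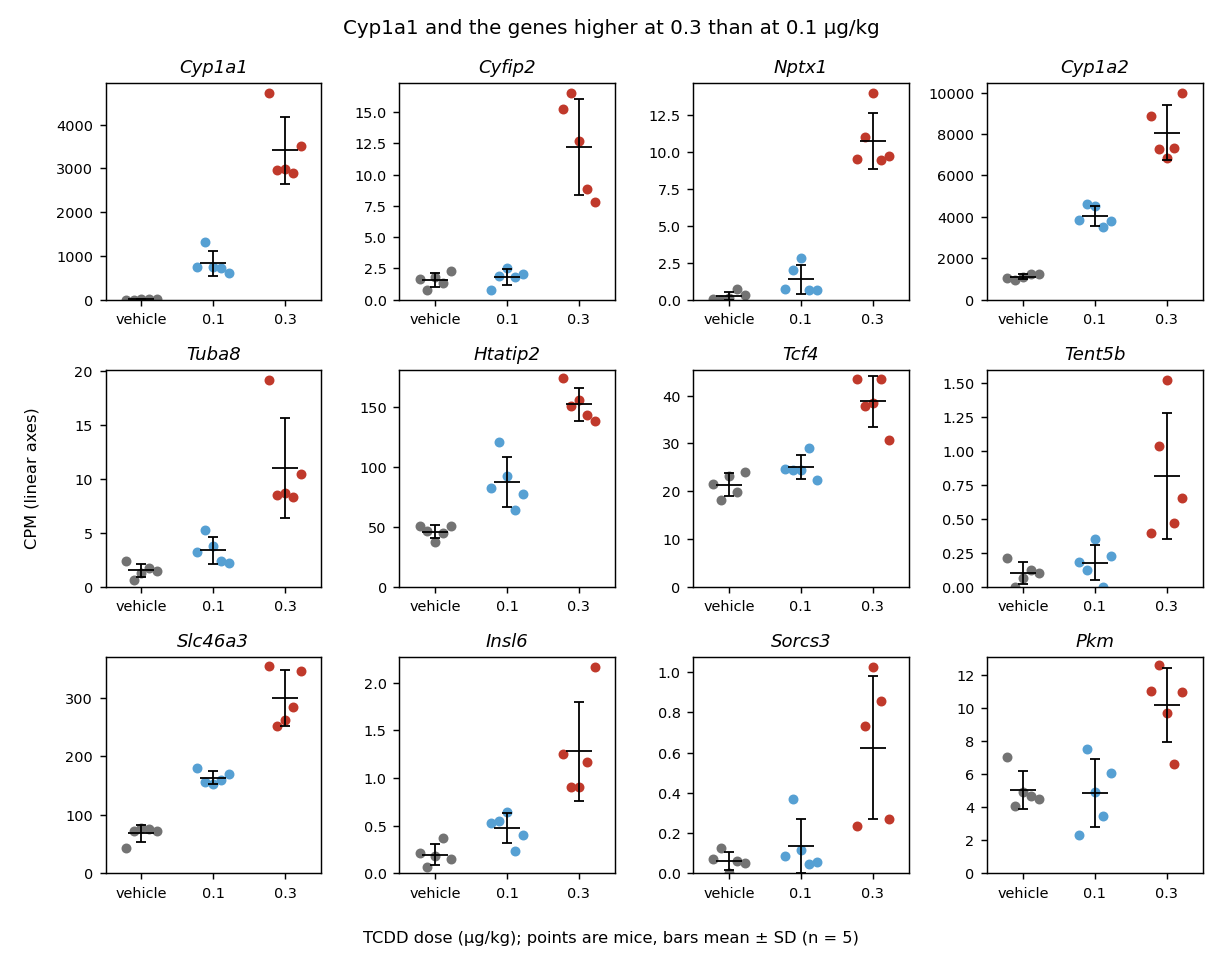
CPM on linear axes from 0 of *Cyp1a1* and the 11 genes that were higher at 0.3 than at 0.1 µg/kg, by dose. Points are the 5 mice of each group and bars the mean ± SD, and *Nptx1* is at 9.42 CPM or more in every mouse at 0.3 µg/kg and at 2.80 CPM or less in all others shown.

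*Nptx1* (ENSMUSG00000025582, chr11:119538719-119547753) encodes a secreted pentraxin best known at synapses. It had 1, 0, 2, 12 and 6 reads in the vehicle mice, 8, 33, 48, 13 and 36 at 0.1 µg/kg and 121, 254, 367, 121 and 179 at 0.3 µg/kg. The treated mice at 0.3 µg/kg stood above every mouse of both other groups, at 9.49, 10.96, 13.9, 9.42 and 9.69 CPM. Its log2 fold change was 5.37 ± 0.56 against vehicle (adjusted p = 1.11e-08) and 3.05 ± 0.42 against 0.1 µg/kg (adjusted p = 4.7e-05). Without vehicle replicate 4, which held 12 of the vehicle reads, the change against vehicle was 6.24, and limma on variance-stabilized counts gave 3.57.

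*Cyfip2* (ENSMUSG00000020340, chr11:46193850-46312859) encodes a subunit of the WAVE complex, which directs actin assembly. Its level was 1.63, 0.763, 1.79, 1.30 and 2.27 CPM with vehicle, 0.8001, 1.90, 2.57, 1.78 and 2.07 CPM at 0.1 µg/kg and 15.3, 16.5, 12.7, 8.88 and 7.80 CPM at 0.3 µg/kg. Vehicle and 0.1 µg/kg overlapped, and all mice at 0.3 µg/kg lay above both. Against vehicle the change was 2.96 ± 0.33 on the log2 scale (adjusted p = 7.51e-08), with 2.70 ± 0.32 against 0.1 µg/kg (adjusted p = 2e-06) and 0.27 at 0.1 µg/kg against vehicle (adjusted p = 0.93).

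*Tuba8* (ENSMUSG00000030137, chr6:121210696-121226854), an alpha-tubulin, stood at 2.33, 0.636, 1.29, 1.73 and 1.47 CPM with vehicle and at 19.1, 8.46, 8.65, 8.33 and 10.45 CPM at 0.3 µg/kg. Replicate 1 was the highest of the treated mice, and the lowest of them was above every control. The log2 fold changes were 2.87 ± 0.28 against vehicle (adjusted p = 1.35e-09) and 1.74 ± 0.25 against 0.1 µg/kg (adjusted p = 6.3e-05). Of its exon bases 16.3% lie under *Gm15856* on the opposite strand, and the counting is not stated to use strand.

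*Insl6*, a peptide of the insulin family known from the testis, *Tent5b*, a poly(A) polymerase of the noncanonical kind, and *Sorcs3*, a sorting receptor of the VPS10 family, were detected in few reads. *Insl6* had 3, 1, 3, 6 and 3 reads with vehicle and 16, 21, 24, 15 and 40 at 0.3 µg/kg. *Tent5b* had 3, 0, 1, 2 and 2 reads with vehicle and 5, 24, 40, 6 and 12 at 0.3 µg/kg. *Sorcs3* had 1, 2, 0, 1 and 1 reads with vehicle and 3, 17, 27, 11 and 5 at 0.3 µg/kg. In CPM all 3 genes were higher in every treated mouse than in any control. Their log2 fold changes were 2.65 ± 0.38, 3.12 ± 0.57 and 3.31 ± 0.65 against vehicle (adjusted p of 2.56e-05, 0.0016 and 0.0039) and 1.48 ± 0.30, 2.24 ± 0.46 and 2.49 ± 0.53 against 0.1 µg/kg (adjusted p of 0.028, 0.028 and 0.033).

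*Htatip2* (ENSMUSG00000039745, chr7:49759115-49773975), an oxidoreductase also known as TIP30, stepped through the 3 groups. It stood at 50.7, 46.6, 37.2, 44.4 and 50.3 CPM with vehicle, 82.6, 120, 92.7, 64.2 and 77.1 CPM at 0.1 µg/kg and 174, 151, 156, 143 and 139 CPM at 0.3 µg/kg. No mouse of a higher dose overlapped a lower group. It rose by 1.73 ± 0.13 on the log2 scale against vehicle (adjusted p = 1.55e-12) and 0.80 ± 0.13 against 0.1 µg/kg (adjusted p = 0.00057).

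*Slc46a3* (ENSMUSG00000029650, chr5:147878437-147894815), a lysosomal membrane transporter, was also ordered by dose. It stood at 43.7, 71.7, 76.8, 76.6 and 72.5 CPM with vehicle, 152 to 181 CPM at 0.1 µg/kg and 354, 251.5, 261, 284 and 345 CPM at 0.3 µg/kg. The 3 groups did not overlap, and vehicle replicate 1 was low among its controls. The rise was 2.13 ± 0.18 on the log2 scale against vehicle (adjusted p = 8.09e-11) and 0.87 ± 0.18 against 0.1 µg/kg (adjusted p = 0.028). *Tcf4* (ENSMUSG00000053477), a basic helix-loop-helix transcription factor, rose from 21.3 ± 2.42 to 38.8 ± 5.28 CPM (log2 fold change of 0.86 ± 0.11, adjusted p = 8.76e-07), was at 24.99 ± 2.502 CPM at 0.1 µg/kg, and differed between the doses by 0.63 ± 0.11 on the log2 scale (adjusted p = 0.0011).

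*Cyp1a1* was also higher in every mouse at 0.3 µg/kg than in any at 0.1 µg/kg, where it stood at 612.2 to 1325 CPM. That difference of 2.04 ± 0.57 on the log2 scale had an adjusted p of 0.35 in the fit across all genes. The fit takes its spread between mice from all 9 groups. An exact two-sided permutation test of these 5 against 5 alone gave p = 0.007937, unadjusted and the smallest that the design allows. That outcome was not particular to *Cyp1a1*. The same permutation p was found for *Ahrr*, *Serpina7*, *Lepr* and *Cyp1b1*, whose adjusted p in the fit were 0.15, 0.35, 0.13 and 0.71. The share of all genes that lay apart between these doses was not counted. *Cyp1a2* differed by 0.99 ± 0.14 on the log2 scale (adjusted p = 4.7e-05), from 3501 to 4601 CPM at 0.1 µg/kg.

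Among transporters, 2 of 24 members rose, *Slc46a3* and *Slc10a2*, and none fell, against 0.326% of all genes that rose, and the list median was -0.04. *Slc10a2*, the apical sodium-dependent bile acid transporter, stood at 1.98, 2.80, 2.77, 3.16 and 2.07 CPM with vehicle and at 9.57, 7.94, 3.22, 8.41 and 5.31 CPM at 0.3 µg/kg. All treated mice were above the controls, replicate 3 by little. Its rise was 1.41 ± 0.34 on the log2 scale (adjusted p = 0.037), and 8 of 10 fits with a mouse left out lost the call, as did leaving out both mice with high *Arntl* (adjusted p = 0.50). *Abcc12*, an ABC transporter with 0 to 3 reads per vehicle mouse and 2, 19, 40, 7 and 4 reads at 0.3 µg/kg, was also called (log2 fold change of 3.22 ± 0.74, adjusted p = 0.026), with groups that overlapped and a call lost in 6 of 10 fits with a mouse left out. Its log2 fold change was 2.57 without replicate 3 at 0.3 µg/kg and 3.84 without vehicle replicate 3.

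Of the glucuronosyltransferase list, *Ugt2b35*, *Ugt1a1* and *Ugdh* rose among 21 genes and none fell, against 0.326% of all genes that rose, and the median log2 fold change was 0.39. *Ugt2b35* stood at 86.5, 103, 83.5, 116 and 56.1 CPM with vehicle and at 194, 262, 150, 213 and 161 CPM at 0.3 µg/kg, with no overlap (log2 fold change of 1.14 ± 0.21, adjusted p = 0.0025, but 0.083 without the mice with high *Arntl*). *Ugt1a1*, the bilirubin-conjugating enzyme, stood at 332.9 ± 82.6 CPM with vehicle and 491.9 ± 23.2 CPM at 0.3 µg/kg (log2 fold change of 0.56 ± 0.14, adjusted p = 0.039, lost in 8 of 10 fits with a mouse left out), and 82.7% of its exon bases are shared with other *Ugt1a* genes, so that reads there could not be assigned to 1 gene. *Gm15375*, an unprocessed pseudogene just upstream of the *Ugt1a* cluster, rose from 0.566, 1.78, 2.10, 1.92 and 1.42 CPM to 4.16, 7.21, 10.5, 13.9 and 10.8 CPM (log2 fold change of 2.57 ± 0.39, adjusted p = 0.00013).

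Of 22 glutathione transferases only *Gstp1*, a pi-class enzyme, passed the test. It rose from 54.9 ± 8.13 to 100.4 ± 16.7 CPM with no overlap (log2 fold change of 0.87 ± 0.16, adjusted p = 0.0020), and the near-identical *Gstp2* had a log2 fold change of 1.63 ± 0.56 (adjusted p = 0.25), so that reads may have been split between them. Among 17 NRF2 targets no gene passed, 14 had a positive log2 fold change, 8 had an unadjusted p under 0.05, and the median was 0.20. Over all genes 52.9% were positive and 10.8% had an unadjusted p under 0.05. *Gclc* (0.72 ± 0.22) and *Txnrd1* (0.31 ± 0.10) had adjusted p of 0.17 and 0.19.

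*Ucp2*, a mitochondrial carrier, stood at 21.4, 27.8, 31.4, 20.7 and 34.0 CPM with vehicle and at 33.3, 61.9, 86.3, 76.6 and 76.6 CPM at 0.3 µg/kg, where only replicate 1 overlapped the controls (log2 fold change of 1.31 ± 0.30, adjusted p = 0.026). *Mogat2*, a monoacylglycerol acyltransferase, had 2 to 9 reads with vehicle and 4, 35, 26, 17 and 23 at 0.3 µg/kg, where replicate 1 overlapped the controls (1.74 ± 0.38, adjusted p = 0.018). *Ces2c*, a carboxylesterase, rose from 19.3 ± 5.67 to 41.5 ± 6.17 CPM with no overlap (1.10 ± 0.24, adjusted p = 0.017), and *Them7*, of the thioesterase superfamily, from 18.4 ± 3.70 to 31.2 ± 5.46 CPM (0.76 ± 0.13, adjusted p = 0.00084). *Pmm1*, a phosphomannomutase, rose from 2.47 ± 0.42 to 5.08 ± 1.80 CPM (1.03 ± 0.23, adjusted p = 0.023). With a mouse left out, the calls of *Ucp2*, *Mogat2*, *Ces2c* and *Pmm1* were lost in 8, 3, 4 and 5 of 10 fits. Without the mice with high *Arntl* the adjusted p of *Ces2c* was 0.077. In the fit of the 2 groups alone those of *Mogat2*, *Them7* and *Pmm1* were 0.120, 0.061 and 0.111.

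*Camkk2*, the kinase that activates AMPK and CaM kinases, rose from 9.80 ± 0.49 to 18.5 ± 2.25 CPM with no overlap (0.92 ± 0.15 on the log2 scale, adjusted p = 0.00022), and *Fbxw9*, an F-box protein, from 20.5 ± 1.45 to 33.6 ± 3.46 CPM (0.71 ± 0.11, adjusted p = 0.00022). *Pcp4l1* stood at 15.1, 16.9, 18.7, 15.6 and 21.7 CPM with vehicle and 126, 44.2, 53.3, 50.7 and 79.9 CPM at 0.3 µg/kg, with replicate 1 highest and no overlap (2.002 ± 0.37, adjusted p = 0.0021). *Tnfaip8l3*, a phosphoinositide transfer protein, rose from 1.75 ± 0.49 to 6.58 ± 2.06 CPM (1.91 ± 0.36, adjusted p = 0.0030), and *Acpp*, an acid phosphatase, from 7.32 ± 1.86 to 18.5 ± 8.004 CPM (1.35 ± 0.27, adjusted p = 0.0077, but 0.096 without replicate 2 at 0.3 µg/kg). The adjusted p of *Acpp* was 0.076 without both mice with high *Arntl*.

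The semaphorin *Sema5b* (2.11 ± 0.49, adjusted p = 0.029), the basement membrane protein *Lad1* (1.66 ± 0.41, adjusted p = 0.043) and *Lrrc14b* (2.21 ± 0.48, adjusted p = 0.018) rose at levels under 4 CPM in every mouse, and lost the call in 5, 8 and 3 of 10 fits with a mouse left out. All exon bases of *Lrrc14b* (100%) overlap *Ccdc127* on the opposite strand. The sodium channel *Scn8a* had 2 reads in all 5 vehicle mice and 51 at 0.3 µg/kg, a ratio per read sequenced of 23.3 (exact 95% interval of 6.14 to 197.8, counting error only). *Siglecf*, a lectin of eosinophils, went from 2 to 39 reads (17.8, interval of 4.62 to 152.5) and the immunoglobulin segment *Igkv6-32* from 2 to 48 (21.95, interval of 5.76 to 186.5). Their adjusted p were 0.00055, 0.021 and 0.0044, *Siglecf* overlapped between the groups, was lost in 6 of 10 fits with a mouse left out and had a log2 fold change of 3.78, or 6.13 without vehicle replicate 3, and the list of 10 other leukocyte markers had no member past the test, with sums of 8.84 to 16.8 CPM with vehicle and 9.41 to 23.7 CPM at 0.3 µg/kg.

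The antisense transcript *Hectd2os* rose as well. It stood at 131, 104, 112, 138 and 104 CPM with vehicle and at 168, 423, 370, 314 and 264 CPM at 0.3 µg/kg, with no overlap (1.39 ± 0.27, adjusted p = 0.0053), and 46.1% of its exon bases lie under *Hectd2* on the opposite strand. *Snhg11*, known as a host gene of small nucleolar RNA, rose from 13.1 ± 2.31 to 29.4 ± 9.94 CPM (1.16 ± 0.27, adjusted p = 0.029), with the call lost in 6 of 10 fits with a mouse left out. *D630045J12Rik* rose from 2.44 ± 0.39 to 5.37 ± 0.65 CPM (1.15 ± 0.23, adjusted p = 0.0053).

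Decreases were fewer, 26 genes at an adjusted p under 0.05 (0.149% of the genes tested), of which 10 fell at least 2-fold. *Serpina7* (ENSMUSG00000031271, chrX:139079257-139085236), the thyroxine-binding globulin of plasma, stood at 101, 39.9, 47.95, 29.6 and 23 CPM with vehicle and at 9.96, 17.4, 11.7, 7.24 and 3.74 CPM at 0.3 µg/kg. Every treated mouse was below every control, and the controls themselves spread widely, with replicate 1 highest. On the log2 scale the change was -2.25 ± 0.36 (adjusted p = 0.00030), and it was -2.66 (adjusted p = 0.00082) without the mice with high *Arntl*.

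*Lepr* (ENSMUSG00000057722, chr4:101717404-101815352), the leptin receptor, stood at 8.35, 9.98, 14.5, 13.1 and 7.88 CPM with vehicle and at 4.08, 2.63, 4.17, 3.66 and 5.198 CPM at 0.3 µg/kg. The groups were apart. *Lepr* changed by -1.45 ± 0.34 on the log2 scale (adjusted p = 0.029), and 7 of 10 fits with a mouse left out lost the call. *Adam11*, a metalloprotease-like protein without protease activity, stood at 5.56 ± 1.37 and 2.24 ± 0.68 CPM (-1.32 ± 0.29, adjusted p = 0.021), with the test lost in 4 of 10 such fits. Without the mice with high *Arntl* their adjusted p were 0.31 and 0.23.

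The glucose and glycogen list held 1 increase and 1 decrease among 23 genes, both pyruvate kinases, with 11 genes at an unadjusted p under 0.05 (10.8% of all genes) and a median of -0.19. *Pklr*, the liver isozyme, stood at 368, 287, 259, 431 and 228 CPM with vehicle and at 88.2, 108, 138, 232 and 202 CPM at 0.3 µg/kg. *Pkm*, the isozyme of muscle and proliferating cells, stood at 7.08, 4.07, 4.93, 4.70 and 4.498 CPM with vehicle and at 11.1, 12.6, 9.71, 6.62 and 10.99 CPM at 0.3 µg/kg. In each gene 1 treated mouse, replicate 4, overlapped the controls. *Pklr* changed by -1.03 ± 0.23 on the log2 scale (adjusted p = 0.019) and *Pkm* by 1.02 ± 0.22 (adjusted p = 0.018). Against 0.1 µg/kg, *Pkm* differed by 1.04 ± 0.22 (adjusted p = 0.045) and *Pklr* by -0.59 ± 0.23 (adjusted p = 0.71). With a mouse left out, *Pklr* failed the test in 4 and *Pkm* in 5 of 10 fits. Without the mice with high *Arntl* the adjusted p were 0.43 for *Pklr* and 0.26 for *Pkm*, and their log2 fold changes -0.73 and 0.86. In the fit of the 2 groups alone the adjusted p of *Pklr* was 0.143. Of *Pklr* exon bases 21.97% lie under *Hcn3* on the opposite strand.

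*Khk*, the ketohexokinase that starts fructose metabolism, stood at 520, 369, 332, 409 and 409 CPM with vehicle and at 273, 175, 204, 268 and 282 CPM at 0.3 µg/kg, with no overlap (-0.76 ± 0.16, adjusted p = 0.016, and 0.17 without the mice with high *Arntl*). In the fit of the 2 groups alone its adjusted p was 0.059. In the list of 45 *Cyp2* and *Cyp3a* genes, of which 42 were tested, *Cyp2d40* alone fell, from 45.4 ± 8.07 to 27.2 ± 3.5 CPM (-0.74 ± 0.17, adjusted p = 0.029, lost in 5 of 10 fits with a mouse left out), and the list median was 0.02. *Cela1*, an elastase gene, was at 14.5 to 21.2 CPM with vehicle and 8.07 to 10.7 CPM at 0.3 µg/kg (-0.95 ± 0.19, adjusted p = 0.0059), in the opposite direction to the pancreatic enzyme reads of replicate 2. Without the mice with high *Arntl* the adjusted p of *Cyp2d40* was 0.22 and that of *Cela1* 0.078.

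*Mast3*, a serine/threonine kinase (-0.84 ± 0.17, adjusted p = 0.0077), *Tlcd1*, a membrane protein (-0.67 ± 0.15, adjusted p = 0.016), and *U2af1l4*, a splicing factor (-0.50 ± 0.10, adjusted p = 0.0053), also fell. *Mast3* was at 43.3 to 51.8 CPM in the controls and at 26.5, 14.8, 23.4, 28.7 and 43.8 CPM in the treated mice, of which replicate 5 overlapped. *Tlcd1* lost the test without replicate 1 and without replicate 2 at 0.3 µg/kg. Without both, *Tlcd1* changed by -0.47 (adjusted p = 0.40) and *Mast3* by -0.63 (adjusted p = 0.19), and in the fit of the 2 groups alone their adjusted p were 0.082 and 0.147, with 0.155 for *U2af1l4*. The remaining decreased DEGs, *Gm13021*, *Gm12955*, *Gm6939*, *Asic3*, *Tmem262* and the unnamed ENSMUSG00000097758, had means under 2 CPM with vehicle. *Tmem262* had 19 reads in all vehicle mice and 1 at 0.3 µg/kg, a ratio of 20.8 with an interval of 3.30 to 863. Its log2 fold change of -3.84 was -5.32 without replicate 3 at 0.3 µg/kg, and 4 of 10 fits with a mouse left out lost the call.

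**Figure D3:**
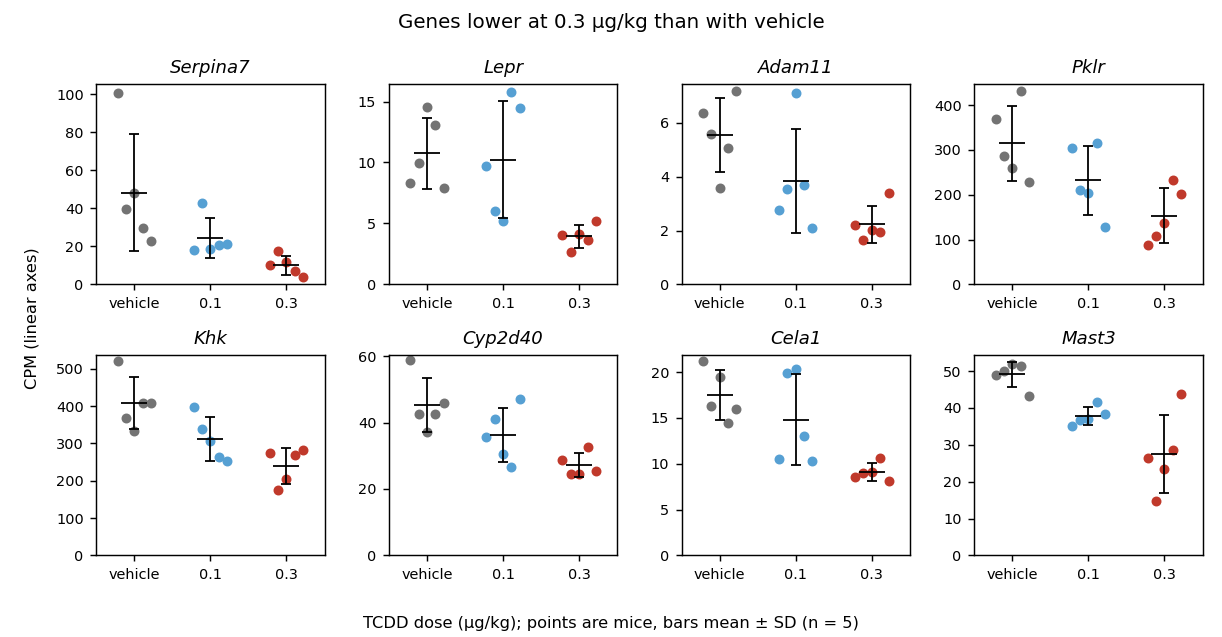
CPM on linear axes from 0 of 8 genes that fell at 0.3 µg/kg, for vehicle, 0.1 and 0.3 µg/kg. Points are the 5 mice of each group and bars the mean ± SD, and all mice at 0.3 µg/kg lie below all vehicle mice except in *Pklr* and *Mast3*, where 1 mouse overlaps.

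Most liver functions listed had no member past the test. De novo lipogenesis (18 genes) had a median log2 fold change of -0.40, the lowest of the metabolic lists, with a positive value in 1 gene and an unadjusted p under 0.05 in 8, but none passed after adjustment. Of all genes 52.9% were positive and 10.8% had such a p. *Fasn*, *Acly* and *Me1* stood at -0.73 ± 0.34, -0.73 ± 0.28 and -0.63 ± 0.24 with adjusted p of 0.43, 0.31 and 0.30. None passed in cholesterol synthesis (24 genes, median -0.14), bile acid synthesis (17, 0.03), fatty acid oxidation (26, -0.10), fatty acid uptake and lipid droplets (22, -0.17), amino acid and one-carbon metabolism (28, -0.19), sulfotransferases (17, -0.345), iron and heme (18, -0.06) or the nuclear receptors (17, 0.04).

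None passed either in the growth hormone axis (15, 0.12), the acute phase genes (22, 0.06), inflammation and chemokines (27, 0.42), the cell cycle (20, 0.08) or the stress response (18, 0.05). The circadian list (20, -0.29) had none past the test and 6 genes at an unadjusted p under 0.05, against 10.8% of all genes. *Npas2* had a log2 fold change of 4.46 ± 1.22 (adjusted p = 0.080), but its reads at 0.3 µg/kg were 154, 21, 4, 0 and 0, against 0 to 3 with vehicle, so that replicate 1 carried the value. *Arntl* was at 3.503 ± 1.02 (adjusted p = 0.13), carried by replicates 1 and 2. The 6 PCR reference genes had none past the test and a median of -0.05.

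**Figure D4:**
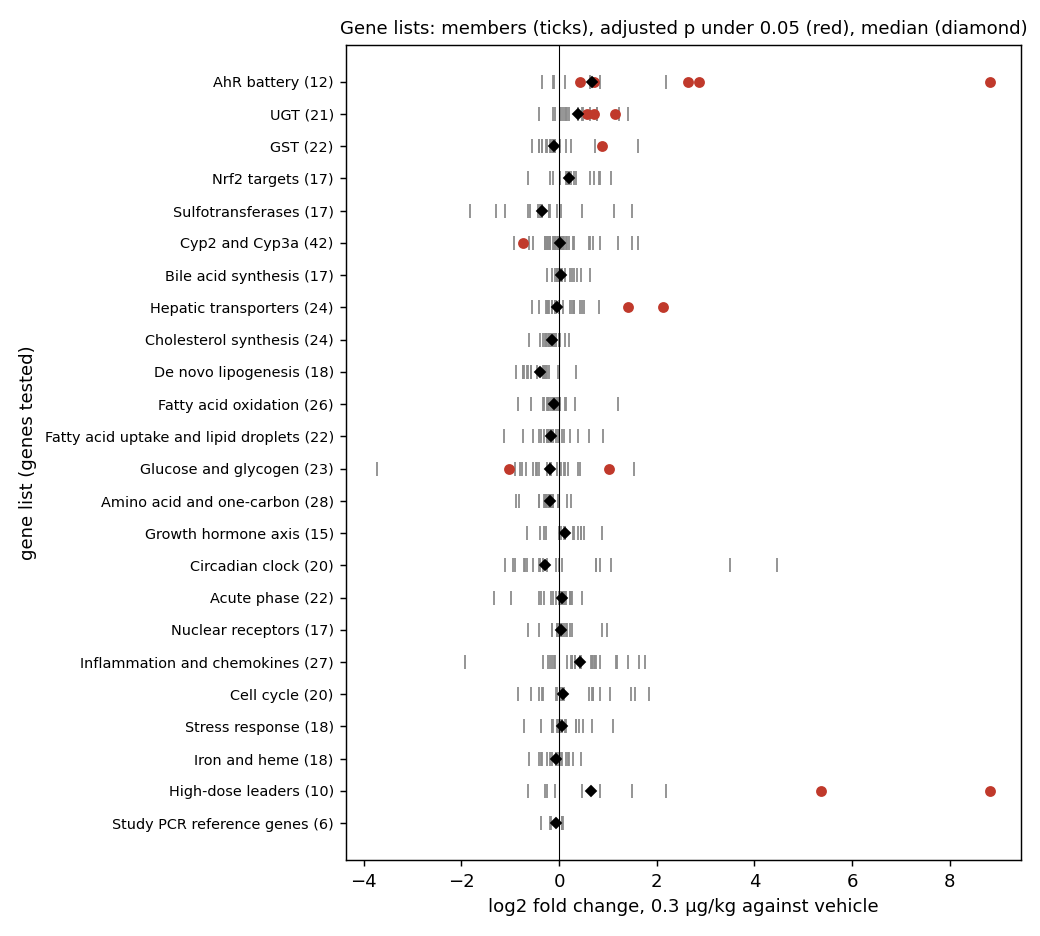
Log2 fold change at 0.3 µg/kg against vehicle (x axis) of every tested member of the gene lists shown (rows, number tested in brackets). Ticks are members, red points those with an adjusted p under 0.05, and diamonds list medians, which range from -0.40 for de novo lipogenesis to 0.68 for the AhR battery.

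A list of 10 genes that changed most at the highest doses was chosen on these samples and is given as values only. *Nptx1* and *Cyp1a1* passed at 0.3 µg/kg and the other 8 did not. *Cyp1a1* stood at 3415 ± 766.1 CPM at 0.3 µg/kg and 7627 ± 1186 CPM at 30 µg/kg, *Nptx1* at 10.7 ± 1.91 and 234.6 ± 48.1 CPM, and *Cyp1b1* at 2.61 ± 0.58 and 1452 ± 266.5 CPM. *Col9a2* had 3 reads in all vehicle mice and 2 at 0.3 µg/kg, and *Hmx1* 0 and 2. *Hao1*, a peroxisomal oxidase, stood at 273.3 ± 28.8 CPM with vehicle, 224 ± 24.6 at 0.3 µg/kg and 2.30 ± 3.24 at 30 µg/kg, and *Sult3a1*, a sulfotransferase, at 128 ± 36.02, 176 ± 72.9 and 2.354 ± 3.42 CPM.

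In the order of doses, the share of genes called against the same vehicle mice was 0.0344% at 0.01, 0.0115% at 0.03, 0.0172% at 0.1, 0.240% at 0.3, 0.928% at 1, 3.09% at 3, 5.85% at 10 and 11.8% at 30 µg/kg. Values at 0.3 µg/kg and at the highest dose were compared directly, a comparison added after the values were seen, in which 24.4% of the genes tested differed. *Slc46a3*, at 299.1 ± 47.6 CPM at 0.3 µg/kg and 298.5 ± 78.7 CPM at 30 µg/kg, had a difference of -0.003 ± 0.18 on the log2 scale (adjusted p = 0.99). *Camkk2* (-0.03 ± 0.14), *Ugt2b35* (0.07 ± 0.21), *Ugt1a1* (0.02 ± 0.14) and *Tent5b* (-0.22 ± 0.36) likewise did not pass, with adjusted p from 0.716 to 0.930. *Lepr*, at 3.95 ± 0.93 and 3.39 ± 0.42 CPM, had a difference of -0.22 ± 0.36 (adjusted p = 0.71).

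Other genes were still far from their level at 30 µg/kg. *Insl6* was higher there by 3.83 ± 0.22 on the log2 scale, *Ahrr* by 6.32 ± 0.36 and *Tiparp* by 3.74 ± 0.18 (adjusted p from 2e-19 to 6.25e-18). *Serpina7* changed by a further -3.29 ± 0.45 and *Pklr* by -1.76 ± 0.23 (adjusted p of 3.33e-07 and 1.48e-07).

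A few genes that rose at 0.3 µg/kg were lower again at 30 µg/kg. *Slc10a2* stood at 2.56 ± 0.51 CPM with vehicle, 6.89 ± 2.58 at 0.3 µg/kg and 1.49 ± 0.45 at 30 µg/kg, and the last differed from 0.3 µg/kg by -2.21 ± 0.36 on the log2 scale (adjusted p = 6.78e-06). *Mogat2* stood at 0.321 ± 0.145, 1.08 ± 0.47 and 0.199 ± 0.116 CPM (-2.55 ± 0.41, adjusted p = 6e-06), and *Gm15375* at 1.56 ± 0.61, 9.34 ± 3.75 and 2.80 ± 0.81 CPM (-1.74 ± 0.36, adjusted p = 0.00031). *Abcc12* differed by -1.82 ± 0.57 (adjusted p = 0.015). These were the 4 increased genes among those named whose level was lower at 30 than at 0.3 µg/kg by this test. The mice at 0.3 µg/kg that gave the increase also entered this test, so a value high by chance in them would favour a fall.

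**Figure D5:**
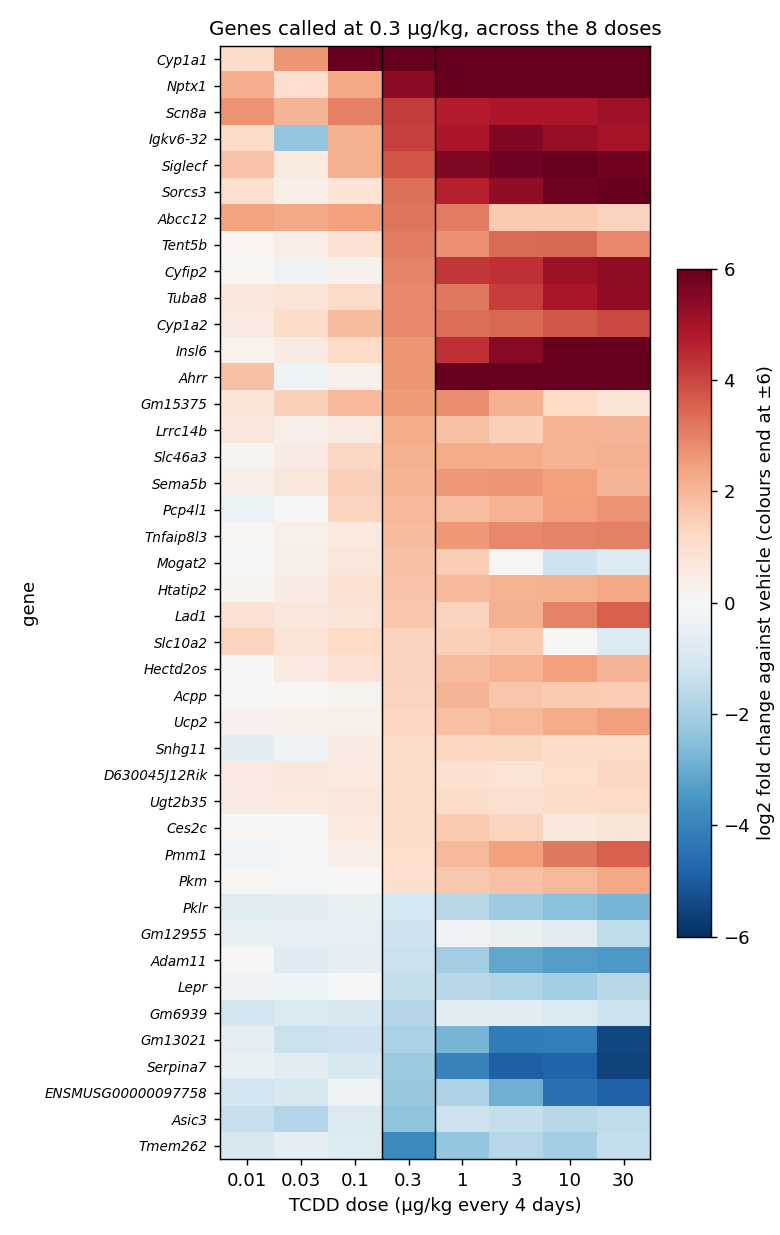
Colour gives the log2 fold change against the same vehicle mice at each of the 8 doses (columns, µg/kg) for the 42 DEGs of 0.3 µg/kg (rows, with 0.3 µg/kg between the black lines), and colours end at ±6. *Cyp1a1* is at 6.77 at 0.1 and 8.82 at 0.3 µg/kg, and *Mogat2* and *Slc10a2* change from 1.74 and 1.41 at 0.3 µg/kg into negative values, -0.81 and -0.80, at the highest dose.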

How the data were processed

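Liver RNA of 45 mice was sequenced in 9 groups of 5, from libraries made with the Illumina TruSeq RNA kit. Per the labels and the study's methods, the authors aligned reads to GRCm38 with Bowtie and TopHat 1.4.1 and counted reads per Ensembl gene with HTSeq 0.6.1. The deposited values are raw read counts per gene, with no normalization. Use of strand is not given in the sources used here.

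Counts were tested with edgeR 4.0.16 in R 4.3.3. All 45 mice entered 1 fit with TMM scaling, and 17464 of 39179 genes with more than 4 reads in any sample were kept. The quasi-likelihood test was adjusted by the Benjamini-Hochberg method over all genes tested, and DEGs had an adjusted p under 0.05 and a fold change of at least 2. SE values are the absolute log2 fold change over the square root of F. CPM use TMM-scaled library sizes. Single values were also compared by exact permutation on log2 CPM with a prior count of 2. P-values of the fit rest on the spread between mice within groups, estimated over all 9 groups together. Those of the permutation test use only the mice compared. The study describes the 5 mice of a group as independent biological replicates. Intervals of read ratios are exact conditional intervals at 95%, and the floor for a group at 0 is 3 reads.

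Counts were simulated for 0.3 µg/kg against vehicle, with 200 changed genes among 16827, drawn from those with a mean of at least 10 reads. The edgeR fit recovered 94% of those changed by 1.5 on the log2 scale and 99% of those changed by 3, with 2 false calls. No deviant mice were simulated, so these shares do not cover genes with fewer reads or libraries that stand apart. No change under 1.5 was simulated, so they do not cover genes near the 2-fold threshold either. Counts were drawn from the kind of model that edgeR fits, with the spread it estimated, which favours recovery.

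Alternatives were DESeq2 1.42.0, limma 3.58.1 on variance-stabilized counts, other scalings and filters, the 2 groups alone, the earlier quasi-likelihood method and each mouse left out. Leaving out both mice with high *Arntl*, and the comparison with 30 µg/kg, were added after the data were seen. The authors' semi-parametric normalization was not repeated. Sequencing pools are not given in the labels, so no value within a pool was made.

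The genes and lists were chosen with earlier results of these data known. Named genes were the 30 DEGs with a mean of at least 10 reads and the largest change, the AhR battery, the 5 increased and 5 decreased genes with the lowest adjusted p under 2-fold, up to 3 members past the test per list, the 5 leading genes against 0.1 µg/kg and the high-dose list. The 9 DEGs outside this rule, and list members given with an adjusted p of 0.05 or more, were chosen after their values were seen. Gene positions are those of GENCODE M21 (GRCm38), which held 17270 of the genes tested, and promoters those of RefSeq in GRCm38.p6. *Nptx1* and 4 other increased DEGs had no promoter window. Python 3.11.15, scipy 1.17.1 and matplotlib 3.10.9 were used.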

Additional observations from a re-analysis of the deposited data

Results flagged for a closer look

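In 6 of 122 sets of 5 mice, 1 mouse lay far from the other 4 by Dixon's criterion, where chance would give about 6.1. At 0.3 µg/kg *Tuba8* was 19.14 CPM in replicate 1, the next highest being 10.45, *Nfe2l2* was 126.5 CPM in replicate 1 against 114.9, and *Insl6* was 2.166 CPM in replicate 5 against 1.255. Vehicle replicate 1 was lowest for *Slc46a3* at 43.73 CPM, the next being 71.73, and highest for *Gm13021* at 2.406 CPM against 0.9902 and for *Pkm* at 7.076 CPM against 4.93. The same mouse gave 3 of the 6, and leaving it out lowered the DEGs from 42 to 27.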

How the results depend on the processing

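Without a mouse, DEGs ranged from 23 to 50 (20 to 39 increased, 3 to 11 decreased), genes with an adjusted p under 0.05 from 41 to 81, and DEGs between 0.3 and 0.1 µg/kg from 3 to 9. Fitting only the 2 groups gave 27 DEGs (4 decreased), 43 genes by adjusted p, and 4 DEGs against 0.1 µg/kg. DESeq2 gave 141 genes by adjusted p and 12 DEGs against 0.1 µg/kg, limma 5 decreased DEGs and 3 against 0.1 µg/kg, the earlier quasi-likelihood method 4 against 0.1 µg/kg, and a fold change of 1.5 gave 63 DEGs and 11 against 0.1 µg/kg. Leaving out both mice with high *Arntl* gave 2 decreased DEGs and 38 genes by adjusted p. Fewer mice entered the fits of 2 groups and those without mice, and otherwise the cause was not tested. Signs changed for *Ugt1a6b* (-0.28 to 0.049 without a mouse), *Gsta1* (-0.80 to 0.24), *Slc13a2* (-0.48 to 0.098) and *Slco1a1* (-0.53 to 0.61, and 0.38 by limma). Without scaling beyond total reads the median of all genes moved by 0.056. No paired analysis was possible because the labels give no replicate numbers, and those used here only name mice. Depth limits genes with few reads, among them 9 DEGs with a mean under 10 reads.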
